A study of Mus musculus with 2 samples.

Results

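The distal microRNAs of the imprinted Dlk1-Dio3 region of mouse chromosome 12 were examined in embryonic hindbrain. They were taken by position as every counted microRNA entry that lies between 109.6 and 109.76 Mb on chromosome 12 (GRCm38, mm10), and 43 of the 1973 listed entries met this rule. RNA came from the hindbrain of healthy B6NCrl embryos at embryonic day 16.5, with both sexes mixed, in 1 group of 2 biological replicates that were separate pools of embryos. Replicate 2 was pooled from 37 embryos, and no other strain, genotype or treatment was studied. Because whole hindbrain was used, fewer cells that make a microRNA and less of it per cell cannot be told apart.

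The Dlk1-Dio3 region carries protein-coding genes that are active on the paternal chromosome and long noncoding RNAs, small nucleolar RNAs and microRNAs that are made from the maternal one. The microRNAs of the stretch studied here lie in and between 2 maternal noncoding genes, Rian, whose introns also carry many small nucleolar RNAs, and Mirg, the microRNA-containing gene at the distal end. Most belong to a large cluster that begins with Mir379, is found in placental mammals, and is best known from brain, where its members act on dendrites, synapses and neuronal migration. Each hairpin can yield a microRNA from its 5′ arm and one from its 3′ arm, and bases 2 to 8 of that microRNA, the seed, pair with target messenger RNAs.

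RefSeq (GRCm38.p6) gave 76 mature sequences for 41 of the 43 entries, and all 37 entries that were detected had at least 1. The table holds both arms for 33 of these 37 and 1 arm for Mir487b, Mir539, Mir376c and Mir485, so the seed and motif counts cover the listed arms only. The listed arms of the 5 most abundant entries are shown first, because these hairpins carry most of the reads described here. Letters in capitals are the seed. The counts give 1 value per hairpin and do not separate its arms.
miR-487b-5p: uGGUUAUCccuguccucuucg
miR-369-5p: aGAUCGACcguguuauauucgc
miR-369-3p: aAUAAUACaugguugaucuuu
miR-382-5p: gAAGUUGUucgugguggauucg
miR-382-3p: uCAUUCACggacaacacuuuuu
miR-411-5p: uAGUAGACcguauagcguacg
miR-411-3p: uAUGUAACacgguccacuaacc
miR-376a-5p: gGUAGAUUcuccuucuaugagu
miR-376a-3p: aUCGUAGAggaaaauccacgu

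The seeds of these microRNAs all differ, and this held for most of the cluster. The 70 mature sequences of the detected entries had 66 distinct seeds. Across all 43 entries, 6 seeds occurred in more than 1 entry, and 10 entries carried them. The next set shows the shared seeds that had both carriers detected. Levels of hairpins that share a seed are not levels of that seed, because either arm can give the reads.
miR-379-3p: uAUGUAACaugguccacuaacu
miR-411-3p: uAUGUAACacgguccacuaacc
miR-379-5p: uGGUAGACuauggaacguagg
miR-1193-5p: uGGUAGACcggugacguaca
miR-370-5p: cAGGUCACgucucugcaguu
miR-1193-3p: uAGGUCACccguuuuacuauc
miR-494-5p: aGGUUGUCcguguugucuucuc
miR-410-5p: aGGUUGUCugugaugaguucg

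miR-379-3p and miR-411-3p were the closest pair of mature sequences of equal length from different hairpins, with the same base at 20 of 22 positions. miR-300-3p and miR-381-3p matched at 19 of 22 positions and miR-543-3p and miR-495-3p at 18 of 22, yet the members of each of these last pairs differ within the seed. They are shown to make this visible.
miR-300-3p: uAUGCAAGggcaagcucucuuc
miR-381-3p: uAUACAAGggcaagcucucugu
miR-543-3p: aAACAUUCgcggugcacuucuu
miR-495-3p: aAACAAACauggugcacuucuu

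Short strings of letters also recur between hairpins, within, partly within or directly after the seed. The letters ACANGG, read on the microRNA strand with N for any base, occurred in 10 of the 34 3p sequences of detected entries (29.4%) and in 0 of their 36 5p sequences. Among mouse 3p sequences from other places, 10 of 695 held them (1.44%). The letters GGUU within the first 9 bases occurred in 12 of the 36 5p sequences (33.3%), in 0 of the 34 3p sequences, and in 26 of 689 5p sequences from other places (3.77%). Both strings were picked after the sequences had been read, so these shares describe the cluster and test nothing. ACANGG began at base 7 in 7 of the 10 detected 3p sequences that hold it, at base 9 in miR-494-3p and miR-496a-3p, and at base 4 in miR-381-3p. Capitals mark it in these examples, which are the 7 that hold it at base 7.
miR-379-3p: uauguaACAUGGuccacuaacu
miR-411-3p: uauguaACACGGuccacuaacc
miR-323-3p: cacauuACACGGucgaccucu
miR-154-3p: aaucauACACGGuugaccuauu
miR-369-3p: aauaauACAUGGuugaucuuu
miR-495-3p: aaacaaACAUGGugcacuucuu
miR-485-3p: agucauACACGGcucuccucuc

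Replicate 1 held 5097205 sense counts on microRNA entries and replicate 2 held 4460836, and CPM is the count of an entry per 1000000 sense counts of its library. Mature sequences of the detected entries are 19 to 25 nt long, so that 1 read spans about 1 microRNA and CPM was not divided by length. Reads that fit several places in the genome, 34.5% and 35.1% of all reads in replicates 1 and 2, are in no entry. The Hox-cluster microRNAs Mir10a and Mir10b, markers of the hindbrain's place on the body axis, together reached 100993 and 85868 CPM. All 6 listed neural microRNAs were detected, with sums of 12301 and 10640 CPM. Of the lists for other cell types, endothelial Mir126a reached 27475 and 29178 CPM and the 2 choroid plexus microRNAs 7189 and 7724 CPM. The liver, erythroid, leukocyte and epithelial lists summed to between 41.0 and 216 CPM in each library. The skeletal muscle list moved between the libraries, with 375 and 24.9 CPM and Mir1a-1 at 0, and its part in the values below was not tested.

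Together the 43 entries held 490986 counts in replicate 1 and 500602 in replicate 2. These are 9.63% of the sense total in replicate 1 (exact binomial 95% interval 9.61% to 9.66%) and 11.2% in replicate 2 (11.19% to 11.3%), a mean of 10.4% ± 1.12 (SD, n = 2). Each such interval comes from 1 library, so it covers counting error alone and leaves out the spread between pools. No molecular identifiers separate copies of 1 molecule, so it may be too narrow even for counting error. The proximal microRNAs of the region, 15 entries between the start of Meg3 and the start of the interval, held 2.32% and 2.52%. At the borders, Mir3071 just outside the interval had 3309 and 3246 counts and Mir341 just inside it 4511 and 4564. At the distal end, Mir3072 inside had 170 and 174 counts, and the next listed entry outside, Mir1247, had 29 and 19.

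Of the 43 entries, 37 were detected, meaning at least 10 counts in both libraries, against 389 of all 1973 entries (19.7%). The remaining 3 with any read were Mir1197 with 7 and 4 counts and the unnamed entries Gm23912 and Gm27379 with 1 and 0 counts each. Mir882, Mir654 and Mir453 had 0 counts in both libraries, and 3 counts per library, the limit that 0 allows, are 0.589 CPM in replicate 1 and 0.673 CPM in replicate 2. Mir376b, a close relative of Mir376a, had no entry of its own and was not analysed here.

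Mir487b was by far the most abundant member. Its hairpin (ENSMUSG00000076219) lies between Rian and Mirg at 109727333 to 109727414, with no annotated host gene on its strand. It had 184861 counts in replicate 1 and 218428 in replicate 2, or 36267 and 48966 CPM, and held rank 5 among all entries. It supplied 37.7% of the counts of the 43 entries in replicate 1 and 43.6% in replicate 2. Without it, the other 42 entries held 6.01% and 6.33% of the sense totals, so that most of the distance between the libraries in the summed share was in this 1 microRNA.

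Mir369 came next, in an exon of Mirg at 109743418 to 109743496. Here an entry is placed in an exon if it overlaps any annotated exon of its host gene, and in an intron otherwise. miR-369-3p is known to act on N-cadherin during the migration of newborn cortical neurons, together with miR-496 and miR-543 of the same cluster. Mir369 had 51841 and 52583 counts (10979 ± 1144 CPM; SD, n = 2). The other members of that trio were lower, Mir543 with 3716 and 3842 counts (795 ± 93.5 CPM) and Mir496a with 1352 and 1522 counts (303 ± 53.7 CPM). Mir487b exceeded Mir369 by a log2 ratio of 1.83 in replicate 1 and 2.05 in replicate 2.

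Mir382 (109733771 to 109733846, in an exon of Mirg) had 44317 and 41616 counts, or 9012 ± 449 CPM. Mir411 (109710175 to 109710256, between Rian and Mirg) followed with 34274 and 31826 counts, or 6929 ± 290 CPM. Mir376a, whose primary transcript is a textbook substrate of adenosine-to-inosine editing in its seed, had 28663 and 27183 counts, or 5858 ± 333 CPM. Its reads were taken from the opposite strand of the entry Gm25252, and edited and unedited reads were not separated in these counts. These 5 members held 72.1% ± 2.96 of the counts of the 43 entries (SD, n = 2), and the first 20 held 97.8% ± 0.210.

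**Figure D1:**
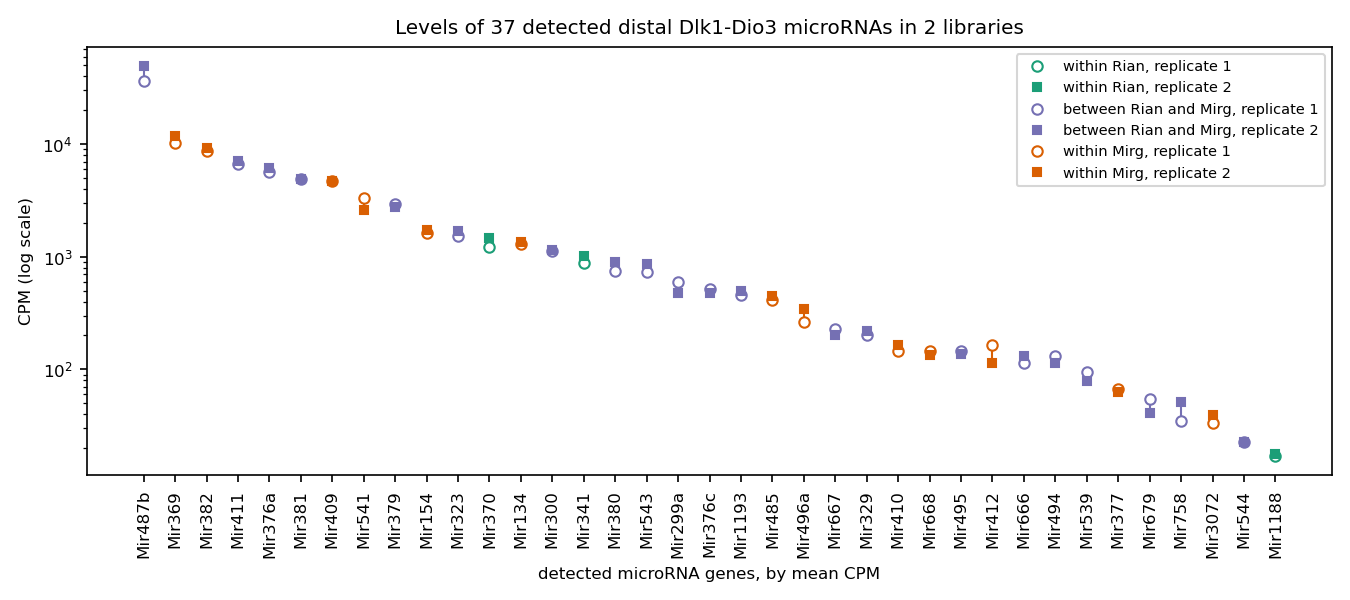
Level of each of the 37 detected microRNAs in CPM (log scale) in replicate 1 (open circles) and replicate 2 (filled squares), ordered by mean CPM and coloured by position relative to Rian and Mirg. Means span 17.4 CPM (Mir1188) to 42616 CPM (Mir487b), and the vertical lines that join the libraries are short beside this range.

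The remaining members above 1000 CPM were Mir381, Mir409, Mir541, Mir379, Mir154, Mir323, Mir370, Mir134 and Mir300. Mir381 had 25011 and 21783 counts (4895 ± 16.7 CPM), and Mir409, read from the opposite strand of Gm24321, had 23764 and 21190 (4706 ± 62.3 CPM). Mir541 had 16858 and 11559 counts (2949 ± 506 CPM), and Mir379, the first hairpin of the cluster, had 14956 and 12263 (2842 ± 131 CPM). Mir541 therefore stood above Mir379 in replicate 1 and below it in replicate 2. Mir154 had 8354 and 7693 counts, Mir323 7776 and 7559, and Mir300 5784 and 5155.

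Of 10 listed members with known roles at synapses and dendrites, 6 were among the 20 most abundant of the 37 detected members. This is near the share of 20 in 37 that holds for all detected members. Mir382, Mir381, Mir541, Mir379 and Mir543 are given above, and Mir134 and the other 4 ran from 140 to 1324 CPM. Mir134, which restrains the growth of dendritic spines by repressing the kinase Limk1, had 6648 and 5990 counts (1324 ± 27.3 CPM). Mir485, which limits synapse number and strength, had 2089 and 2002 counts (429 ± 27.6 CPM). Mir329, which with Mir134 is induced by neuronal activity through the transcription factor Mef2, had 1038 and 986 counts (212 ± 12.3 CPM). Mir495, a reported regulator of the neurotrophin Bdnf, had 739 and 605 counts (140 ± 6.62 CPM), and Mir410, the last hairpin of the cluster proper, had 745 and 729 (155 ± 12.2 CPM). Across the 10, Mir382 was the highest and Mir495 the lowest in both libraries.

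The order of levels was checked with a rule for the spread between libraries: the log2 ratio of consecutive members had to have the same sign in both libraries and a mean above 2 SD. The rule gives no p-value, and with 2 libraries the smallest p of an exact sign-flip test is 0.5. Of the 36 steps in the order of the 37 detected members, 21 passed and 15 did not. Among the first 20 members, 13 of 19 steps passed. The steps from Mir487b to Mir369, to Mir382, to Mir411, to Mir376a, to Mir381, to Mir409 and to Mir541 all passed. With 3 SD in place of 2, 15 of the 36 steps passed, and the steps from Mir376a to Mir381, to Mir409 and to Mir541 did not. Members were sorted by the mean of these same 2 libraries, so the check is not independent of the order. The order of Mir541 and Mir379, of Mir154 and Mir323, of Mir370 and Mir134, and of Mir543, Mir299a, Mir376c and Mir1193 was not resolved. An SD from 2 libraries is itself imprecise, so a step that passed shows the same order in both and no more.

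The hairpins fall into 3 stretches. Rian (109603940 to 109661716) held 4 entries, all in introns, of which 3 were detected. The stretch between Rian and Mirg held 25 entries, of which 21 were detected, from the start of Mir379 at 109709060 to the end of Mir544 at 109729402. Mirg (109729764 to 109749460) held 14 entries, of which 13 were detected, 9 in exons and 4 in introns.

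The stretch between Rian and Mirg supplied 65.6% of the counts of the 43 entries in replicate 1 and 68.5% in replicate 2, with Mir487b as its largest part. Mirg supplied 32.2% and 29.3%, and Rian 2.20% and 2.23%. Within Mirg, exonic hairpins held 21.4% ± 0.758 of the counts of the 43 entries and intronic hairpins 9.32% ± 1.32 (SD, n = 2). By median the order was the other way round, with 155 CPM over the 9 exonic hairpins detected and 2316 CPM over the 4 intronic ones. Mir369 and Mir382 made up most of the exonic sum, and Mir668, Mir412, Mir377 and Mir3072, also exonic, had means of 36.2 to 140 CPM.

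The Rian hairpins differed widely in level. Mir370 (109618258 to 109618336), which has been linked to the control of fatty acid oxidation in liver, had 6209 and 6527 counts (1341 ± 173 CPM). Mir341 had 4511 and 4564 counts (954 ± 97.7 CPM), while Mir1188, 226 bases after it, had only 87 and 79 (17.4 ± 0.454 CPM). The median GC content of the 6 mature sequences of these 3 hairpins was 67.4%, against 45.5% for the 39 between Rian and Mirg, 50% for the 25 of Mirg and 52.2% for 1662 other mouse mature microRNAs. The ranges overlapped, with 55.0% to 76.2% in Rian, 31.8% to 72.7% between Rian and Mirg, and 23.8% to 77.3% in Mirg.

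**Figure D2:**
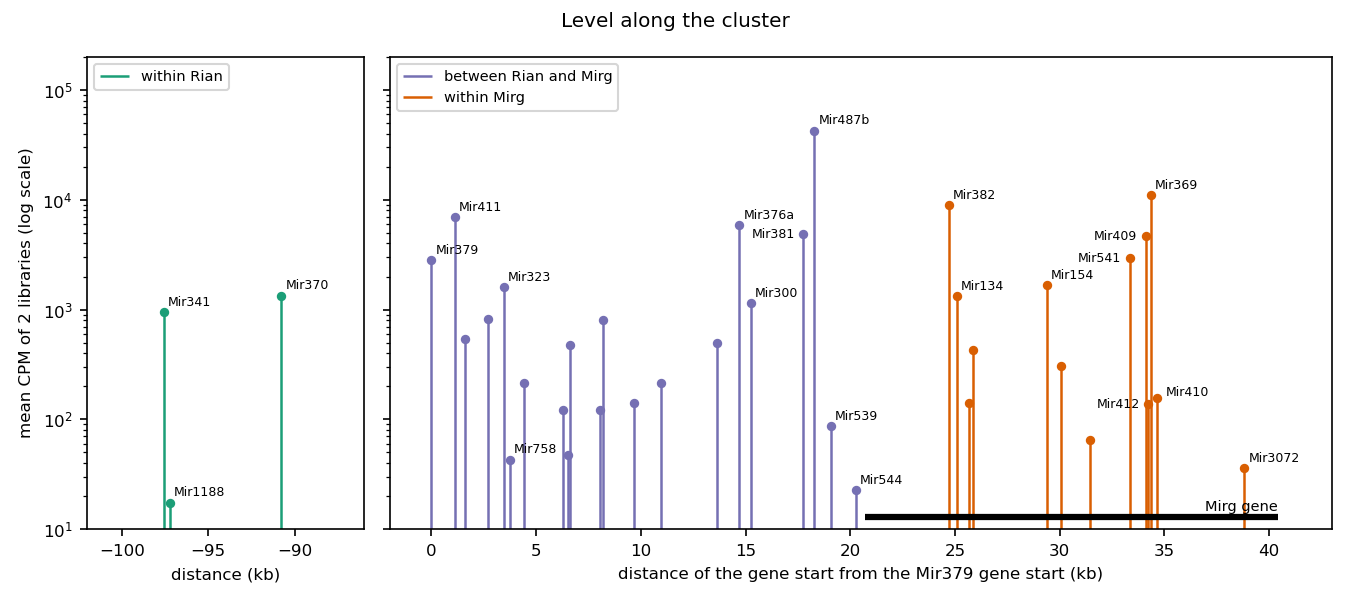
Mean CPM of 2 libraries (log scale) against the distance of each annotated entry's start from the start of Mir379 in kb, for the 3 detected hairpins in Rian (left panel) and those downstream (right panel), with the Mirg gene as a black bar. High and low hairpins alternate over short distances, as at Mir409, Mir412, Mir369 and Mir410.

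Hairpins that lie side by side mostly differed in level. Between consecutive detected hairpins the median distance was 686.5 bases and the median size of the log2 ratio was 2.42. Of 36 such neighbours, 35 differed by the 2 SD rule and 23 differed more than 4-fold. The exception to the rule was Mir299a beside Mir380, with log2 ratios of -0.31 and -0.91. Levels of the 37 detected members span 2451-fold, and pairs of hairpins farther apart were not compared in this way. These counts therefore do not say whether neighbours differ more or less than other pairs.

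Large steps lay over short distances around Mir412, Mir539 and Mir679. Mir412, in an exon of Mirg, had 833 and 503 counts (138 ± 35.8 CPM). It lies 51 bases after the entry that holds Mir409 and 49 bases before Mir369, and these exceeded it 34.7-fold and 80.7-fold (mean log2 ratios 5.12 ± 0.40 and 6.33 ± 0.53; SD, n = 2). Mir410, 218 bases after Mir369, was 70.8-fold lower than Mir369. Mir539, 714 bases after Mir487b, had 479 and 354 counts and was 488-fold lower than Mir487b. Mir679 and Mir1193, with 20 bases between them, differed 10.1-fold, with 277 and 183 counts for Mir679 and 2342 and 2208 for Mir1193. Mir323 and Mir758, 216 bases apart, differed 38.1-fold, with 178 and 228 counts for Mir758.

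**Figure D3:**
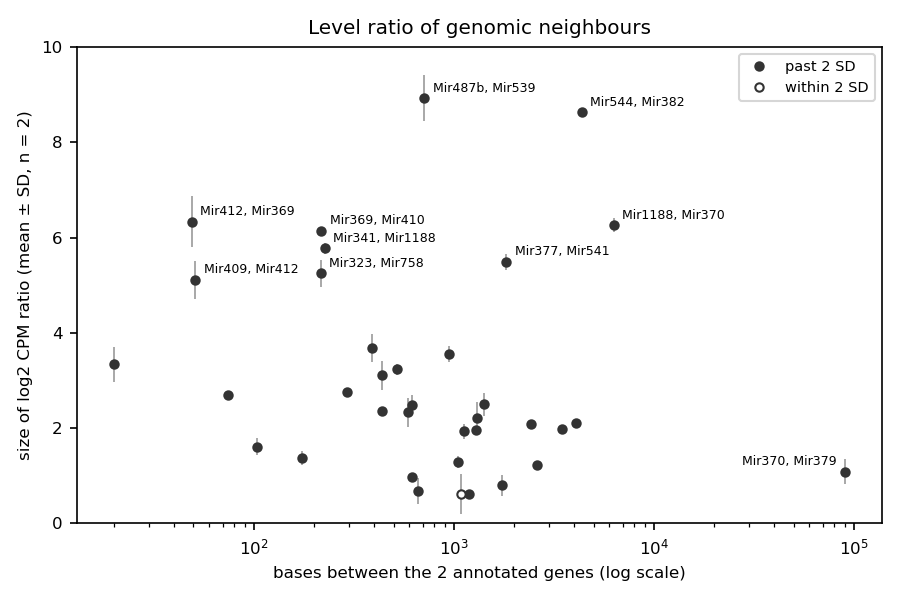
Size of the log2 CPM ratio of consecutive detected hairpins (mean ± SD, n = 2 libraries) against the number of bases between the annotated entries (log scale). Filled points passed the 2 SD rule, the open point did not, and ratios above 4 log2 units occur at gaps from 49 to 6316 bases.

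Several members with related sequences differed in level. Pairs without related sequence were not set beside them, so these values do not say whether related pairs differ more or less than others. Mir379 and Mir411, which share the 3p seed AUGUAAC, differed by a mean log2 ratio of -1.29 ± 0.13 (SD, n = 2), Mir411 being 2.44-fold higher. As whole hairpins, both arms counted, these 2 held 9.42% ± 0.862 of the counts of the 43 entries. The hairpins Mir379 and Mir1193, which share the 5p seed GGUAGAC, held 3.21% ± 0.447, and Mir370 and Mir1193, which share AGGUCAC, held 1.74% ± 0.00233. Mir379 and Mir1193 each enter 2 of these sums. Mir494 and Mir410, which share GGUUGUC, were close in level, with 667 and 508 counts for Mir494 and 745 and 729 for Mir410. Mir453 shares GGUUGCC with Mir496a but had 0 counts, and Mir1197 shares GGUUGAC with Mir758 but had 7 and 4 counts. In all, the 10 entries in shared seed groups held 11.8% ± 0.862 of the counts of the 43 entries. Mir300 and Mir381, with near-identical 3p arms but different seeds, differed 4.27-fold. Mir376c had 2633 and 2127 counts and was 11.8-fold below Mir376a.

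Some seeds recur outside the region. Of the 70 mature sequences of detected entries, 9 had a seed that RefSeq lists for a microRNA elsewhere in the mouse genome. miR-329-3p shares its seed with miR-362-3p, whose gene Mir362 on the X chromosome had 247 and 173 counts, 43.6 ± 6.84 CPM against 212 ± 12.3 CPM for Mir329. miR-377-5p shares its seed with miR-672-5p, and here the gene elsewhere was higher, with 1312 and 935 counts for Mir672 against 344 and 278 for Mir377. miR-412-3p shares its seed with miR-1983, whose entry had 14891 and 11786 counts. miR-410-3p shares its seed with the miR-344d and miR-344e hairpins of chromosome 7, which had at most 21 counts in either library.

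The libraries were then compared entry by entry with a two-sided exact binomial test on TMM-scaled totals. It was run on the 405 entries whose counts summed to 20 or more, and Benjamini-Hochberg adjusted p-values under 0.05 were called. Counting noise is all this test allows for, and it sets library against library, not condition against condition. All 37 detected members were tested, and 26 passed, against 188 of all 405 entries (46.4%). Of these, 22 were higher in replicate 2, where the share over all entries was 21.5%, and 4 were higher in replicate 1, where it was 24.9%. The median log2 ratio of replicate 2 over replicate 1 was 0.13 over the members and -0.01 over all 405 entries. Taken without sign, the median log2 ratio was 0.17 over the members and 0.19 over all 405 entries. The test calls smaller differences at higher counts, and the median level was 497 CPM over the detected members against 155 CPM over all 389 detected entries. Whether the larger share called among the members comes with larger differences than in entries of like level was not tested. Plain totals lower every log2 ratio by 0.06, and 16 members were then called toward replicate 2 and 9 toward replicate 1, against 15.8% and 32.6% of all entries. Members of 1 cluster come from shared transcripts and are not independent.

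Most differences between the pools were under 1.5-fold. Of the 37 members, only Mir758 differed by more than 1.5-fold, with 178 and 228 counts, against 40 of all 405 entries tested. Mir758 was singled out after its values were seen. The log2 ratios ran from -0.48 to 0.61 over the members and from -3.88 to 1.79 over all 405 entries. Whether the members differ less than entries of like level was not tested. Among the 10 called members of at least 100 CPM with the largest differences, Mir487b was 1.40-fold higher in replicate 2 (log2 ratio 0.49, exact 95% interval 0.48 to 0.50). Mir496a (0.42), Mir380 (0.33), Mir370 (0.32), Mir543 (0.30), Mir666 (0.28) and Mir369 (0.27) were also higher in replicate 2 on this log2 scale. Mir412 (-0.48), Mir541 (-0.30) and Mir299a (-0.27) were higher in replicate 1, and Mir679 was the remaining member called in that direction (-0.35). Mir412 thus moved opposite to its close neighbours Mir369 and Mir409, with a log2 ratio of -0.48 (interval -0.64 to -0.32) beside 0.27 (0.25 to 0.29) and 0.08 (0.06 to 0.11).

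**Figure D4:**
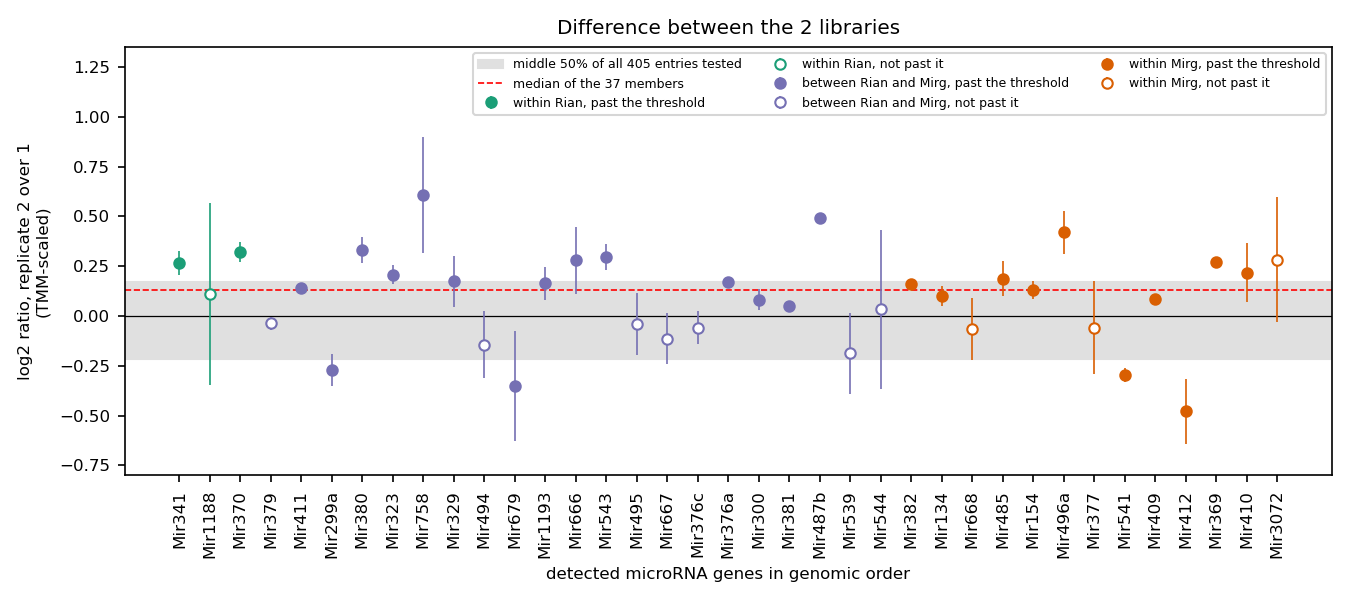
Log2 ratio of replicate 2 over replicate 1 (TMM-scaled) for the 37 detected members in genomic order, with exact 95% intervals, filled where the adjusted p was under 0.05. The dashed line is the members' median of 0.13, and the grey band is the middle 50% of all 405 entries tested, from -0.21 to 0.17.

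Whether these differences exceed the spread between pools cannot be tested with 1 group of 2 libraries. As a description only, with the biological coefficient of variation (BCV) set to 0.1, the exact test of edgeR called 0 of the 37 members (4 at an unadjusted p under 0.05; smallest adjusted p 0.364, for Mir758) and 7 of all 405 entries (1.73%). With the BCV estimated over all entries of the same 2 libraries, 16.2%, 0 members were called (0 at an unadjusted p under 0.05) beside 3 of all entries (0.741%). The common BCV over the members alone was 11.5%. By stretch, the median log2 ratio was 0.27 over the 3 Rian hairpins, 0.08 over the 21 between Rian and Mirg, 0.13 over the 13 of Mirg, and 0.01 over the 12 tested proximal microRNAs of the region, and differences between these stretches were not tested.

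The 4 microRNAs read from the opposite strand of another entry were Mir376a, Mir409, Mir380 and Mir299a. Mir380 had 3803 and 4027 counts (824 ± 111 CPM), from the entry Gm25750. Mir299a had 3065 and 2138 counts (540 ± 86.3 CPM), from the entry Mir299b. Together the 4 held 12.1% and 10.9% of the counts of the 43 entries. Mir376a held rank 5 and Mir409 rank 7 among the 43 entries.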

How the data were processed

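Small RNA reads from 2 hindbrain libraries were analysed as gene counts. Total RNA was the starting material and sizes under 30 nt were taken, per the labels. The authors deposited raw counts per microRNA entry (mm10, annotation GENCODE M4), as the text deposited with each sample says, with 3 count columns (either strand, sense and opposite strand). Aligner and counter: not given in the sources used here. The 4 summary lines stayed out of totals.

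Identifiers were matched without version to GENCODE M21 (1894 of 1973), which gave positions and host genes. Sense counts were used, with opposite-strand counts for 4 entries. CPM was taken over the sense total, which does not hold those 4 counts. TMM factors came from edgeR 4.0.16 in R 4.3.3. DESeq2 1.42.0 gave other factors. Python 3.11.15, scipy 1.17.1, pandas 2.3.3, numpy 2.4.6 and matplotlib 3.10.9 were used. The binomial test was tried on simulated counts with counting noise alone, as the test itself assumes. That trial therefore says nothing about the spread between pools. With 1 group there was no contrast between conditions.

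Members, lists and tests were chosen with earlier results of these data known. Named were the 20 members of highest mean CPM, the 4 opposite-strand entries, members of shared seed groups, 10 members with known synaptic or dendritic roles, and the 10 largest called differences between the libraries at 100 CPM or more. Others were named after their values were seen. Alternatives were other strands, totals, scalings, count minimums, seed lengths and tests, and each library alone.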

Additional observations from a re-analysis of the deposited data

Results flagged for a closer look

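The entry Mir299b, which supplied Mir299a from its opposite strand, had 5 counts on its own strand in replicate 1 and 2 in replicate 2. The 5 counts are above the fixed limit of 3 counts. These reads lie in a column that the comparisons did not use for this entry. The 39 members counted on the sense strand had 0 opposite-strand counts in both libraries. A check for a library far from the others needs at least 4 in a group, and a difference between groups needs more than 1 group; neither was run.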

How the results depend on the processing

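The summed share of 10.4% became 12.7% with the most abundant entry out of the total, 5.94% with multimapping reads in it and 9.23% without the 4 opposite-strand entries. It was 6.44% without Mir487b in members and total, a setting chosen after seeing the data. Single libraries gave 9.63% to 11.2%. The share of hairpins in shared seed groups rose from 11.8% to 20.8% with seeds of bases 2 to 7. The 26 members called between the libraries became 6 when a difference of at least 25% was also required. Of these, 4 were higher in replicate 2 and 2 in replicate 1. The share over all entries was not computed at this setting, so 6 cannot be read as many or few. With edgeR's exact test at either BCV, 0 members were called in either direction, beside 7 and 3 of all 405 entries. With plain totals, 9 members in place of 4 were higher in replicate 1. The cause of these changes was not tested. Of 122 recomputed values, 107 stayed within their limits, among them all 60 for single microRNAs. For the level of a single microRNA or a share, the limit was the SD of the 2 libraries. Either library alone meets that limit by arithmetic, so leaving out 1 library could not move these values. A reversal was looked for only in the median log2 ratio, with 0 found. With 2 libraries, leaving out 1 leaves no test. Depth allowed 36 members to reach 100 counts in both libraries.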
